A study of Mus musculus with 18 samples.

Results

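Endothelial cells of the glomerulus were described by 9 genes of their surface and membrane traffic: *Pecam1*, *Esam*, *Cd34*, *Emcn*, *Plvap*, *Ehd3*, *Ehd4*, *Eng* and *Clec14a*. The genes were taken by symbol from the annotated array table, in which 25254 of 28856 transcript clusters (the probe sets that stand for a gene) carry a symbol. All 9 were found, each with 1 transcript cluster. Their signals were read on all 18 arrays, 3 for each of 6 groups. The groups were endothelial cells, mesangial cells and podocytes of *Cd2ap* mutant mice (CD2AP-/-, strain B6.129X1-Cd2ap tm1Shaw/J) and of wild type mice, all 5 weeks old. Cells of isolated, dissociated glomeruli were sorted by FACS for a GFP reporter that all mice of a cell type carried, mutant and wild type alike: *Tie2-GFP* for endothelial cells, *Meis1-GFP* for mesangial cells and a podocyte reporter for podocytes. A reporter marks the cells in which its promoter is active, whatever their type. The question was how strongly each gene was measured in each cell type, and whether its level differed between mutant and wild type cells. *Cd2ap* encodes an adaptor protein that links nephrin to the cytoskeleton of the podocyte, and mice without it develop a nephrotic disease with focal segmental glomerulosclerosis.

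The endothelium of a glomerular capillary is thin, perforated by open fenestrae and covered by a coat of sialomucins, and it lies against the basement membrane opposite the podocytes. PECAM-1 and ESAM are adhesion molecules of the endothelial junction. CD34 and endomucin (*Emcn*) are sialomucins of the luminal surface, PLVAP forms the diaphragms of caveolae and of diaphragmed fenestrae, which most mature glomerular fenestrae lack, and EHD3 and EHD4 are ATPases of the Eps15 homology domain family that shape recycling endosomes. EHD3 is known as a marker of the glomerular among the renal endothelia. Endoglin (*Eng*) is a co-receptor for ligands of the TGF-beta family, and CLEC14A is a C-type lectin of the endothelial surface.

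The median signal of an array, on values whose distributions the authors had equalized, lay between 62.8 and 71.6, and Pearson's r of log2 signals between arrays of a group lay between 0.967 and 0.992. Mutant podocytes had the lowest values, 0.967 to 0.971, and the lowest r in any other group was 0.980, in wild type mesangial cells. The targeted gene did not separate the genotypes: *Cd2ap* had a mean signal of 926 ± 37.5 (SD, n = 3) in mutant and 819 ± 53.9 in wild type endothelial cells, 829 ± 37.6 and 1027 ± 101 in mesangial cells, and 1498 ± 17.6 and 1775 ± 295 in podocytes. The adjusted p values of these differences in limma were 0.336, 0.151 and 0.504. Whether the probes lie within the mutated part of the gene is not known, so this gene does not check the genotype labels. The deposited names of the mesangial controls carry a plus and a minus sign where the other controls carry a pair of plus signs. Their titles call them control and not wild type, while the genotype field of their records reads wild type. They are called wild type here after that field, and it is not known whether these mice were heterozygous. The letters A, B and C only tell the 3 arrays of a group apart and follow the order of the columns.

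Array C of wild type mesangial cells stood apart in what it held. Its signals of 8 other endothelial markers (*Kdr*, *Flt1*, *Tek*, *Tie1*, *Egfl7*, *Robo4*, *Erg*, *Cdh5*) summed to 4414, against 1198 and 1383 on arrays A and B. The 7 podocyte markers summed to 1683 on it, against 864 and 1008, the erythroid markers to 7227, against 559 and 271, the tubule markers to 906, against 376.9 and 354, and the leukocyte markers to 799, against 372 and 346. Without this array the same 7 members were called between wild type endothelial and mesangial cells. Values of members without it are given where it moves a call or a direction. For the lists of markers and partners, values without it are given only in the genotype comparison of mesangial cells. The labels of the endothelial arrays were borne out by the marker lists. The endothelial list summed to between 10321 and 12130 on the 6 endothelial arrays and to at most 4414 elsewhere, with all 8 genes at or above a signal of 100. In the same endothelial arrays the 7 podocyte markers summed to at most 577 and the 5 mesangial markers (*Itga8*, *Pdgfrb*, *Des*, *Gata3*, *Agtr1a*) to at most 358, and no mesangial marker reached 100. The wild type podocyte arrays, where the podocyte markers summed to 9557 to 10719, also held endothelial markers at 2397 to 3222, above the 1198 and 1383 of wild type mesangial arrays A and B, and mesangial markers at 2652 to 3487. The part of these in the comparisons of members with wild type podocytes was not tested.

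The promoters of *Cd34*, *Ehd3* and *Ehd4* are shown because these 3 members fell together in mutant mesangial cells. The sequences are from RefSeq on the build GRCm38.p6, run 5′ to 3′ in the direction of the gene, and hold the 250 bases before its start. *Cd34* lies on the plus strand at chr1:194938571-194938820, *Ehd3* on the plus strand at chr17:73804591-73804840 and *Ehd4* on the minus strand at chr2:120154576-120154825. Capitals mark CCAAT, an element bound by NF-Y, or GGGCGG, a GC box bound by Sp factors, on either strand.
Cd34: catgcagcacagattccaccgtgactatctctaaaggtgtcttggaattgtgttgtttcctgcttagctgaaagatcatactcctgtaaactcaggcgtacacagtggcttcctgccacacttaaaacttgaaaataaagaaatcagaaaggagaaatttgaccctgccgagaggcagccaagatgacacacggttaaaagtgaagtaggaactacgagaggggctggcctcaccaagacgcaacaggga
Ehd3: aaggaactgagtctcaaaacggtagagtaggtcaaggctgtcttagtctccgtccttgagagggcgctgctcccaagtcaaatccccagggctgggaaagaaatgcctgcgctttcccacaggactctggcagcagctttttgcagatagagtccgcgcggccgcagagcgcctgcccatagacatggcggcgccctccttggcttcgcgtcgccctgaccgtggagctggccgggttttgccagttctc
Ehd4: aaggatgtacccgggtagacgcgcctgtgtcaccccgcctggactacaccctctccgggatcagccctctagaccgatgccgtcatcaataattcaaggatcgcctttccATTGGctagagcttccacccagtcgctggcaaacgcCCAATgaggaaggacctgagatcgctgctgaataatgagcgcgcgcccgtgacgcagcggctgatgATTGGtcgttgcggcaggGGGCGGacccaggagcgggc
In the *Ehd4* promoter CCAAT occurred 3 times, starting 140, 104 and 38 bases before the gene's start, and GGGCGG occurred once, 20 bases before it. The *Cd34* and *Ehd3* windows held no match to either. Promoters were given for 6 of the 9 members, which adds *Emcn*, *Eng* and *Clec14a* to the 3 shown. Motifs of endothelial regulators were searched on both strands: CCGGAA for Ets factors, AGATAA for GATA factors and TGTTTAC for forkhead factors. No promoter of the 6 held any of them, while 12%, 9.99% and 3.17% of the 32851 mouse promoters of this length did. TATAAA, found in 12.4% of all promoters, was also in none of the 6, CCAAT was in 1 of 6 against 33.8% of all, and GGGCGG in 1 of 6 against 32.7%. GC content ran from 40.8% in *Emcn* and 46.4% in *Cd34* to 60% in *Ehd3*, 61.2% in *Ehd4* and 62.4% in *Eng*, around a median of 52.4% over all promoters.

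**Figure D1:**
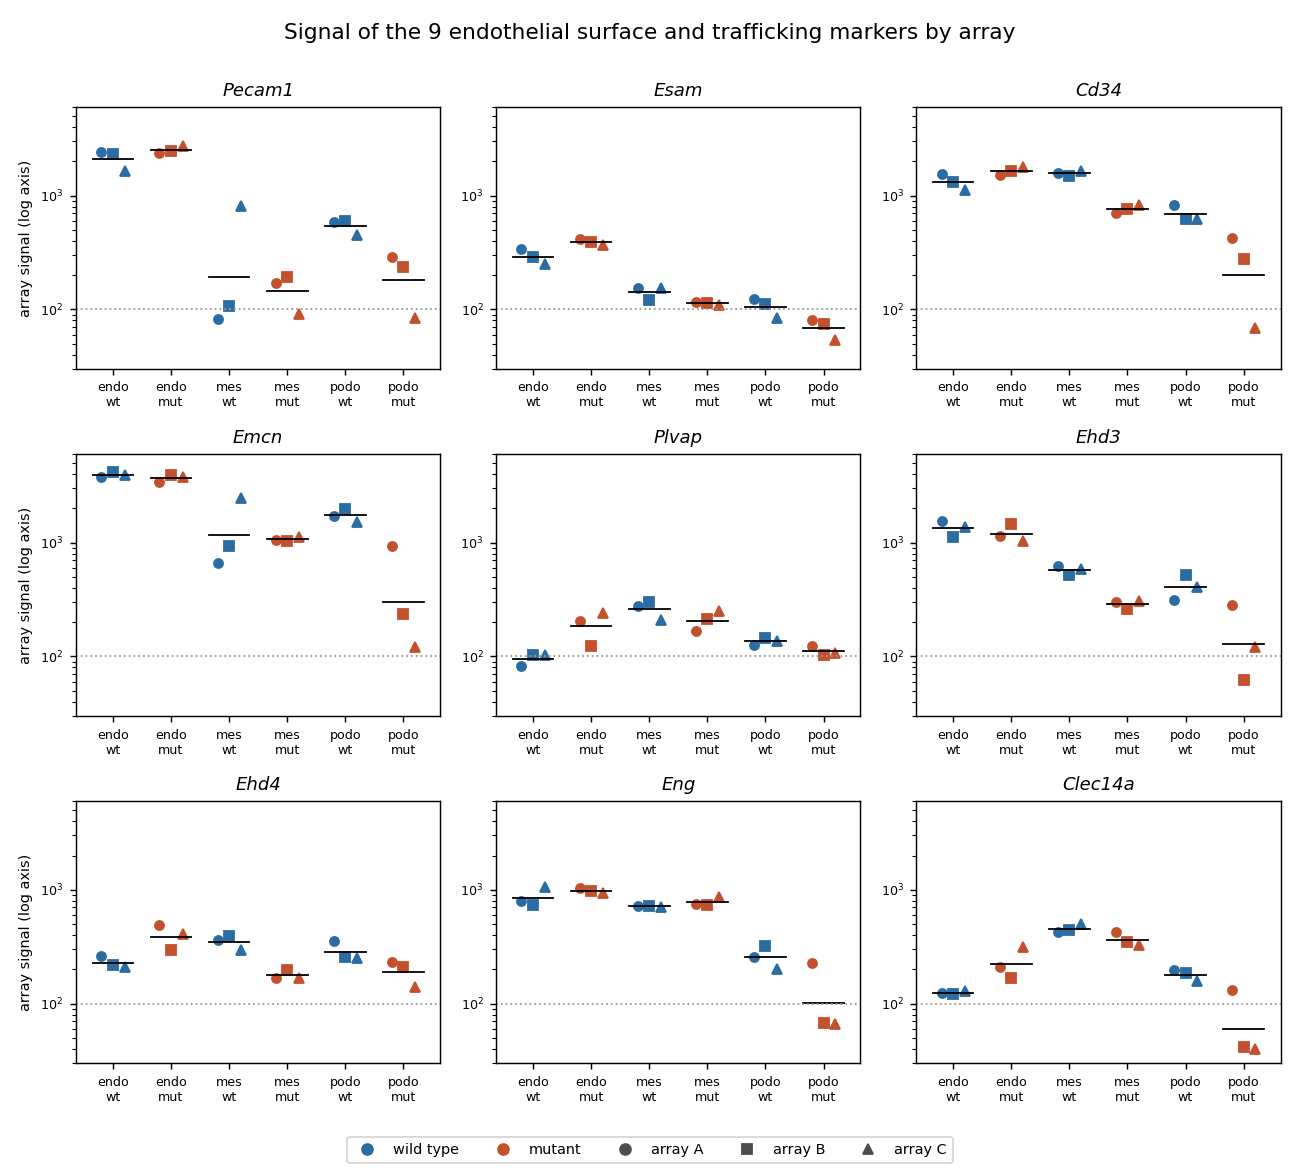
Signal of each member on the 18 arrays, on a log axis, by cell type (endo, mes, podo) and genotype (wt, wild type; mut, mutant). Points are arrays, bars are means of the 3 log signals, and the dotted line marks a signal of 100. *Pecam1* and *Emcn* stand highest in endothelial arrays, while *Clec14a* and *Plvap* have their highest mean in wild type mesangial arrays.

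In wild type mice, 4 of the 9 members were higher and 3 lower in endothelial than in mesangial cells at an adjusted p under 0.05, which is what called means throughout. The adjustment was over 13523 transcript clusters here, and in each other fit over those it tested. Of all transcript clusters tested, 27.2% were called in this comparison, 13.3% higher in endothelial cells and 13.9% lower. Against podocytes 4 members were called higher in endothelial cells and 0 lower, with 18.6% of all transcript clusters called higher and 33.4% in either direction. At an unadjusted p under 0.05 there were 6 members higher and 1, *Plvap*, lower. The share of all transcript clusters at that unadjusted p is not given for this comparison. The contrasts were limma fits of log2 signals over all 18 arrays, and differences are given on the log2 scale with their standard errors.

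Among the junctional molecules, *Pecam1* gave signals of 2409, 2320 and 1634 on wild type endothelial arrays, 82.3, 107 and 807 on mesangial arrays and 590, 600 and 455 on podocyte arrays. The high mesangial value is that of array C, and the endothelial arrays lay above all others. *Pecam1* was higher in endothelial than in mesangial cells by 3.44 ± 0.63 (adjusted p = 0.000585), and by 4.47 without array C (adjusted p = 5.84e-07). It was higher than in podocytes by 1.94 ± 0.63 (adjusted p = 0.0258). Leaving out any 1 of 5 of the 6 arrays of those 2 groups, all but endothelial array C, brought that p to between 0.0506 and 0.0813, and with no signal minimum it was 0.061. *Esam* gave 337, 287 and 249 in endothelial cells, 155, 121 and 154 in mesangial cells and 123, 111 and 83.1 in podocytes. Its endothelial arrays lay above all others, by 1.02 ± 0.17 against mesangial cells (adjusted p = 0.000208) and 1.47 ± 0.17 against podocytes (adjusted p = 4.86e-06).

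Of the sialomucins, *Cd34* gave 1559, 1326 and 1117 in endothelial cells, 1570, 1495 and 1632 in mesangial cells and 829, 618 and 626 in podocytes. Its endothelial and mesangial arrays overlapped, with a difference of -0.24 ± 0.42 (adjusted p = 0.72), and the difference of 0.95 from podocytes missed the threshold (adjusted p = 0.0993). The latter passed with only the arrays of the groups compared (adjusted p = 0.00192). *Emcn* gave 3762, 4201 and 3900 in endothelial cells, 667, 943 and 2464 in mesangial cells and 1725, 1979 and 1532 in podocytes. Endothelial signals of *Emcn* were above all others, by 1.77 ± 0.53 against mesangial cells (adjusted p = 0.0206) and 2.32 without mesangial array C (adjusted p = 0.00363). The first call was lost when mesangial array A or B or endothelial array B or C was left out, with adjusted p values from 0.0539 to 0.0988. Against podocytes the difference in *Emcn* was 1.19 (adjusted p = 0.102), and it passed with only the arrays of the groups compared (adjusted p = 9.85e-05).

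*Plvap*, the diaphragm gene, was lowest in endothelial cells. It gave 82.0, 104 and 103 on wild type endothelial arrays, 278, 300 and 208 on mesangial arrays and 126, 145 and 137 on podocyte arrays. No array of 1 cell type overlapped another cell type in *Plvap*. Endothelial cells lay below mesangial cells by a log2 difference of -1.44 ± 0.21 (adjusted p = 8.02e-05), and the difference of -0.50 from podocytes was not called (adjusted p = 0.0819). *Clec14a* showed the same order. Its signals were 123, 122 and 129 in endothelial cells, 426, 445 and 496 in mesangial cells and 196, 185 and 158 in podocytes. The difference between endothelial and mesangial cells was -1.87 ± 0.33 (adjusted p = 0.000452), and that between endothelial cells and podocytes was -0.52 (adjusted p = 0.26). With only the arrays of the groups compared, the differences of *Plvap* and *Clec14a* between endothelial cells and podocytes passed (adjusted p = 0.0112 and 0.00548). In mesangial cells *Plvap* and *Clec14a* were also higher than in podocytes, by 0.93 and 1.35 (adjusted p = 0.00426 and 0.00751), where 13.6% of all transcript clusters were called higher in mesangial cells. *Pecam1* differed from podocytes by -1.50 in mesangial cells (adjusted p = 0.1), a difference that passed at -2.53 without mesangial array C (adjusted p = 0.000318). The size of -2.53 rests on mesangial signals of 82.3 and 107.

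Of the recycling ATPases, *Ehd3* was highest and *Ehd4* lowest in endothelial cells by the group means. *Ehd3* gave 1557, 1121 and 1360 in wild type endothelial cells, 618, 517 and 581 in mesangial cells and 314, 519 and 411 in podocytes. Endothelial arrays lay above all others, by 1.23 ± 0.36 against mesangial cells (adjusted p = 0.0189) and 1.72 ± 0.36 against podocytes (adjusted p = 0.00153). The first of these was not called without endothelial array A or C or mesangial array B (adjusted p = 0.054 to 0.0641). *Ehd4* gave 259, 218 and 208 in endothelial cells, 358, 392 and 297 in mesangial cells and 356.1, 256 and 253 in podocytes. Endothelial cells lay below mesangial cells in *Ehd4* by a log2 difference of -0.61 (adjusted p = 0.0377), a call lost when endothelial array B or C or mesangial array A or B was left out (adjusted p = 0.0931 to 0.135), with no signal minimum (adjusted p = 0.0676) and after a second quantile normalization (adjusted p = 0.0634), and did not differ from podocytes at the threshold (-0.32, adjusted p = 0.258). *Eng* gave 802, 740 and 1049 in endothelial cells, 723, 719 and 701 in mesangial cells and 258, 318 and 200 in podocytes. The co-receptor thus stood above podocytes in endothelial and in mesangial cells, by 1.75 ± 0.33 and 1.49 ± 0.33 (adjusted p = 0.000669 and 0.00359), while its difference between endothelial and mesangial cells was 0.26 (adjusted p = 0.619).

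**Figure D2:**
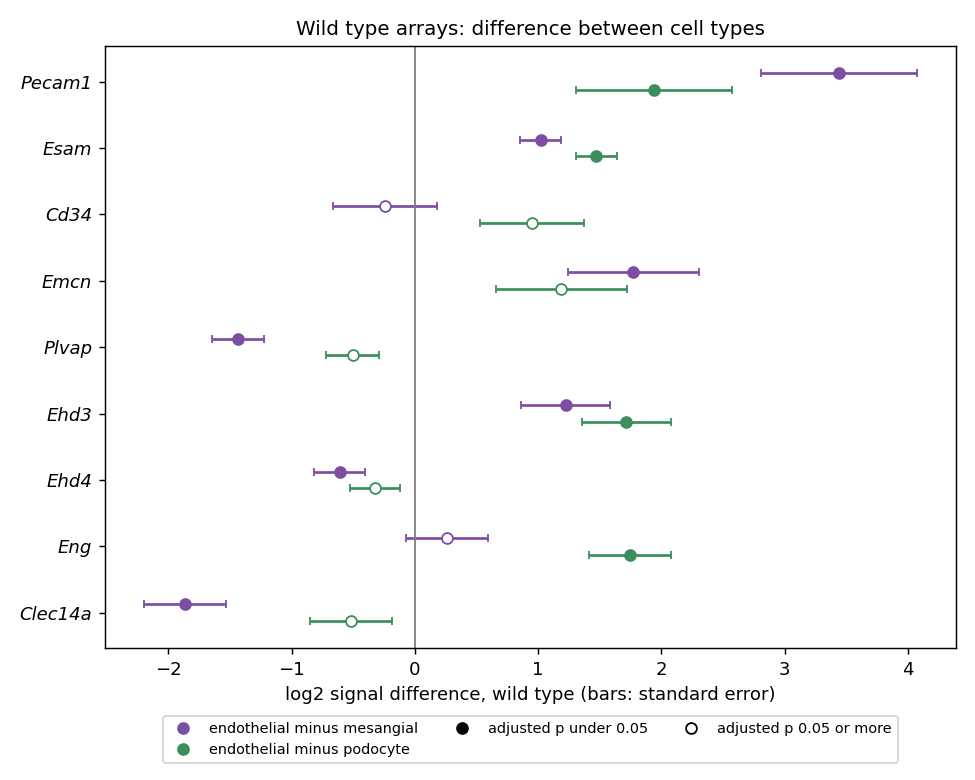
Log2 signal difference of each member between wild type endothelial cells and wild type mesangial cells or podocytes, with standard errors from the fit over 18 arrays. Filled points passed an adjusted p of 0.05. *Pecam1*, *Esam*, *Emcn*, *Ehd3* and *Eng* lie to the right of 0 in both contrasts, and *Plvap*, *Ehd4* and *Clec14a* to the left. *Cd34* lies to the left against mesangial cells and to the right against podocytes.

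All 8 of the endothelial markers were called higher in wild type endothelial than in mesangial cells, with a median difference of 2.76, against 4 of 9 members, with a median of 0.26. In bulk arrays a smaller number of cells of a type cannot be told apart from less RNA per cell.

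In mesangial cells, 3 of the 9 members were lower in mutants at an adjusted p under 0.05 in limma and 0 were higher, as at an unadjusted p under 0.05, which 5 lower members passed, beside 12.9% of all transcript clusters lower and 21.7% in either direction. The 3 were *Cd34*, *Ehd3* and *Ehd4*. Over all 11457 transcript clusters tested, 2.92% were called in either direction, and 1.68% of all were called lower. The median log2 fold change of the members was -0.34, that of all transcript clusters -0.02. *Cd34* gave 700, 755 and 825 on mutant arrays against 1570, 1495 and 1632 on wild type arrays. Every mutant array was lower than every wild type array, and *Cd34* fell by 1.05 ± 0.09 on the log2 scale (adjusted p = 0.00538). *Ehd3* gave 301, 262 and 310 against 618, 517 and 581, and *Ehd4* 168, 196 and 169 against 358, 392 and 297. Neither gene's groups overlapped, and *Ehd3* fell by 0.98 ± 0.11 (adjusted p = 0.0121) and *Ehd4* by 0.97 ± 0.13 (adjusted p = 0.0191). Without wild type array C the changes were -1.01, -0.96 and -1.08 (adjusted p = 0.01, 0.0205 and 0.00988). *Ehd4* was not called when any other 1 of the 6 arrays was left out (adjusted p = 0.056 to 0.0731), and *Ehd3* was not called without mutant array B (adjusted p = 0.0512), when *Cd34* was the 1 member called. With all 18 arrays in 1 fit only *Ehd4* stayed called, with adjusted p values of 0.216 for *Cd34* and 0.176 for *Ehd3*.

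Among the members that did not pass in mesangial cells, *Clec14a* gave 423, 348 and 328 in mutants against 426, 445 and 496 in wild type (-0.32, adjusted p = 0.197), and *Esam* gave 116, 113 and 109 against 155, 121 and 154 (-0.34, adjusted p = 0.166). These groups lay close but did not overlap, as was so for *Eng* in the other direction, with 751, 734 and 855 against 723, 719 and 701 (0.12, adjusted p = 0.469). In all, 5 members lay lower in every mutant array and 1 higher, where 28.6% of all transcript clusters did not overlap in either direction and 16.3% of all lay lower without overlap. *Plvap* gave 166, 212 and 251 against 278, 300 and 208 (-0.33, adjusted p = 0.381). *Pecam1* and *Emcn* turned on wild type array C. *Pecam1* gave 172, 192 and 90.8 in mutants against 82.3, 107 and 807, a difference of -0.42 (adjusted p = 0.807) that became 0.62 without array C (adjusted p = 0.364). *Emcn* gave 1064, 1036 and 1114 against 667, 943 and 2464, a difference of -0.11 (adjusted p = 0.906) that became 0.43 without it (adjusted p = 0.213).

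The marker lists were read on the same mesangial arrays. The 5 mesangial markers all lay lower in every mutant array, with a summed signal of 5782 to 6583 against 8381 to 9246, and 2 of them were called: *Itga8*, an integrin of the mesangial cell, at -0.59 (adjusted p = 0.0235) and *Pdgfrb*, the receptor of mesangial growth factor PDGF-B, at -0.58 (adjusted p = 0.042). Without wild type array C the 2 called were *Itga8* (adjusted p = 0.0388) and *Des* (-0.82, adjusted p = 0.0342), and *Pdgfrb* was not called (adjusted p = 0.0764). The 5 smooth muscle and juxtaglomerular markers summed to 1592 to 2892 in mutants against 1326 to 1609, with 0 called and 2 at an unadjusted p under 0.05. The 7 podocyte markers summed to 730 to 799 against 864 to 1683, and 3 of them lay lower in every mutant array, with 0 called and 1 at an unadjusted p under 0.05. The erythroid markers summed to 176 to 361 in mutants against 559, 271 and 7227 on wild type arrays A, B and C, with 0 of 3 called and 0 at an unadjusted p under 0.05. The 8 other endothelial markers summed to 1295, 1231 and 910 in mutants against 1198, 1383 and 4414 on wild type arrays A, B and C, and all of the 7 tested had a negative log2 difference, with a median of -0.45 beside -0.34 for the members. Without array C, 5 of the 6 then tested had a positive difference, with a median of 0.25 beside -0.28 for the members. Of the endothelial markers *Tek* fell by 1.19 (adjusted p = 0.0497; -0.95 and 0.0478 without array C), and 6 did not pass the test, among them *Kdr* and *Cdh5* (adjusted p = 0.694 and 0.814). The part of these lists in the change of *Cd34*, *Ehd3* and *Ehd4* was not tested.

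**Figure D3:**
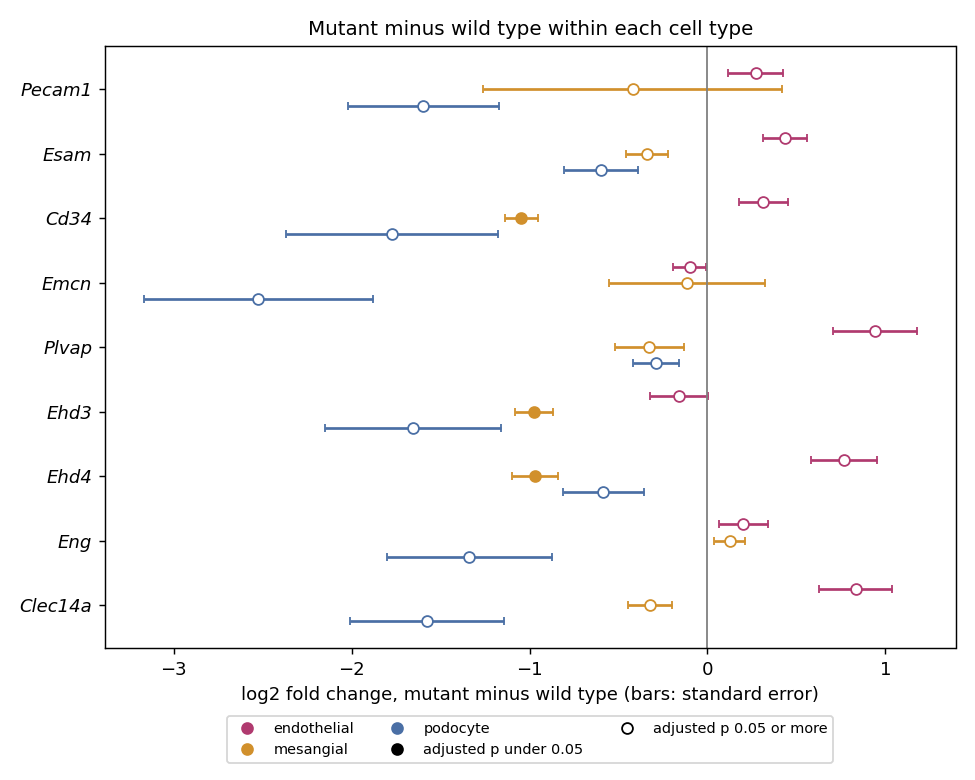
Log2 fold change of each member, mutant minus wild type, within endothelial cells, mesangial cells and podocytes, with standard errors from the fit to the 6 arrays of that cell type. Filled points passed an adjusted p of 0.05, which only mesangial *Cd34*, *Ehd3* and *Ehd4* did. Podocyte points lie to the left of 0 for all 9 members, with wide errors for most.

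In endothelial cells no member passed an adjusted p of 0.05 in limma, where 1.29% of 11330 transcript clusters did. Unadjusted p values were under 0.05 for 4 members, all higher, beside 13% of all transcript clusters higher and 18.5% in either direction, and the methods' screen of an unadjusted p under 0.05 with a fold change over 1.5 took 3 of them, *Plvap*, *Ehd4* and *Clec14a*, all higher in mutants (2.96% of all transcript clusters were taken as higher). *Plvap* gave 205, 124 and 243 in mutants against 82.0, 104 and 103, a log2 difference of 0.94 ± 0.24 (adjusted p = 0.11). *Ehd4* gave 486, 293 and 407 against 259, 218 and 208, a difference of 0.77 ± 0.18 (adjusted p = 0.101). *Clec14a* gave 211, 167 and 312 against 123, 122 and 129, a difference of 0.83 ± 0.21 (adjusted p = 0.108). In each of these genes the mutant arrays lay above all wild type arrays and mutant array B was the lowest of them. Without that array all 3 passed, at 1.22, 0.97 and 1.04 (adjusted p = 0.0125, 0.0246 and 0.034). Some other omissions lowered the differences, to 0.74 for *Plvap* and 0.59 for *Clec14a* without mutant array C and to 0.60 for *Ehd4* without mutant array A, and the adjusted p reached at most 0.327, 0.279 and 0.301 for *Plvap*, *Clec14a* and *Ehd4*. The wild type endothelial signals of *Plvap* and *Clec14a* were near 100, and *Plvap* reached 100 on 2 of those 3 arrays.

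The remaining members differed less in endothelial cells. *Esam* gave 413, 393 and 366 in mutants against 337, 287 and 249, again without overlap (0.43, adjusted p = 0.148), which made 4 members higher in every mutant array, beside 17.7% of all transcript clusters. *Cd34* gave 1508, 1646 and 1790 against 1559, 1326 and 1117 (0.31, adjusted p = 0.271), and *Pecam1* gave 2364, 2483 and 2733 against 2409, 2320 and 1634 (0.27, adjusted p = 0.385). Wild type array C was the lowest of its group for *Pecam1*, *Cd34* and *Esam*. *Eng* gave 1039, 984 and 928 against 802, 740 and 1049 (0.20, adjusted p = 0.455). *Ehd3* gave 1139, 1445 and 1037 against 1557, 1121 and 1360 (-0.16, adjusted p = 0.621), and *Emcn* 3434, 3897 and 3744 against 3762, 4201 and 3900 (-0.10, adjusted p = 0.591). The sum of the 8 other endothelial markers was 11758 to 12130 in mutants and 10321 to 11237 in wild type, and 0 of the 8 were called (3 at an unadjusted p under 0.05). Sums of other lists also lay apart between the genotypes, at 275 to 316 in mutants against 326 to 358 for mesangial markers, 341 to 366 against 394 to 403 for tubule markers and 262 to 290 against 219 to 253 for lymphatic endothelial markers. Few genes of these lists reached 100 in endothelial cells, 0, 1 and 1 were tested, 0 were called, and the lymphatic gene had an unadjusted p under 0.05. The erythroid sums overlapped between the genotypes, at 1329, 1782 and 1220 in mutants against 3900, 1351 and 2447 in wild type. Of the 2 erythroid genes tested 0 were called, and 0 had an unadjusted p under 0.05. The part of these lists in the differences of the members was not tested. The median log2 fold change was 0.31 over the members and 0.07 over all transcript clusters.

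In podocytes all 9 members had lower mean log2 signals in mutants, and none passed an adjusted p of 0.05, where 0.0578% of 12113 transcript clusters did. At an unadjusted p under 0.05 there were 8, all but *Plvap*, beside 10.9% of all transcript clusters lower and 14.3% in either direction, and the methods' screen took 7 as lower, beside 4.34% of all transcript clusters. *Emcn* gave 944, 238 and 122 in mutants against 1725, 1979 and 1532, a log2 difference of -2.53 ± 0.64 (adjusted p = 0.183). *Cd34* gave 424, 277 and 68.2 against 829, 618 and 626 (-1.77, adjusted p = 0.257), and *Pecam1* 290, 237 and 84.5 against 590, 600 and 455 (-1.60, adjusted p = 0.197). In each of these genes mutant array A was the highest and array C the lowest of the mutant group, and no mutant array reached the wild type range. *Ehd3* gave 285, 62.5 and 120 against 314, 519 and 411 (-1.66, adjusted p = 0.216), and *Clec14a* 132, 41.3 and 39.5 against 196, 185 and 158 (-1.58, adjusted p = 0.205). *Eng* gave 228, 67.5 and 66.0 against 258, 318 and 200 (-1.34, adjusted p = 0.269). It was the 1 member whose groups overlapped, through mutant array A. *Ehd4* gave 234, 210 and 140 against 356.1, 256 and 253 (-0.58, adjusted p = 0.32), *Esam* 81.1, 74.4 and 53.8 against 123, 111 and 83.1 (-0.60, adjusted p = 0.271) and *Plvap* 123, 103 and 108 against 126, 145 and 137 (-0.29, adjusted p = 0.366). In mutant podocytes *Esam* reached a signal of 100 on 0 of 3 arrays and *Clec14a* and *Eng* on 1 of 3 each, and *Esam* entered the test only through 2 of 3 wild type arrays, so the sizes of these 3 differences rest on signals under the minimum. *Esam* is nevertheless counted in the 8 at an unadjusted p under 0.05 and in the 7 of the screen. Mutants lay lower in every array for 8 of 9 members, *Esam* among them, beside 14.3% of all transcript clusters. The median log2 fold change was -1.58 over the members and -0.04 over all. That median of the members is the value of *Clec14a*, whose size rests on signals under the minimum. Without mutant array A, *Emcn* (-3.35, adjusted p = 0.00926), *Clec14a* (-2.15, adjusted p = 0.00926), *Eng* (-1.93, adjusted p = 0.0149) and *Ehd3* (-2.23, adjusted p = 0.0298) passed. Without mutant array C the differences shrank, to -1.05 for *Pecam1*, -0.998 for *Cd34*, -1.87 for *Emcn* and -0.36 for *Ehd4* (adjusted p = 0.117, 0.174, 0.213 and 0.419), and without mutant array B that of *Ehd3* was -1.13 (adjusted p = 0.329). With all 18 arrays in 1 fit, 6 members passed, and *Pecam1*, *Plvap* and *Ehd4* did not. The 6 were *Emcn* (adjusted p = 0.0132), *Clec14a* (0.0138), *Ehd3* (0.0159), *Cd34* (0.0236), *Eng* (0.028) and *Esam* (0.0473). The share of all transcript clusters called in that fit is not given.

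The other endothelial markers were lower in mutant podocyte arrays too. Their summed signal was 1466, 934 and 735 on mutant arrays A, B and C against 2707, 3222 and 2397 on wild type arrays, and 7 of the 7 that were tested lay lower in every mutant array. *Kdr* gave 244, 75.4 and 65.2 against 544, 664 and 535. The summed signal of the mesangial markers was 2407, 2301 and 760 against 3487, 3003 and 2652, while that of smooth muscle and juxtaglomerular markers was 2970, 2374 and 1022 against 783, 769 and 766. The podocyte markers themselves summed to 8378, 8488 and 10037 against 10719, 9557 and 10568, and 0 genes of these 4 lists were called in limma, against 6, 2, 2 and 3 at an unadjusted p under 0.05 in the order given. The 9 members summed to 2740, 1311 and 802 against 4517, 4731 and 3854. Their order over the mutant arrays, A over B over C, was that of the endothelial, mesangial, and smooth muscle and juxtaglomerular marker sums, and of the erythroid sum, at 5377, 692 and 202 against 3963, 2962 and 3935 in wild type. The part of these other cells in the podocyte result was not tested.

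**Figure D4:**
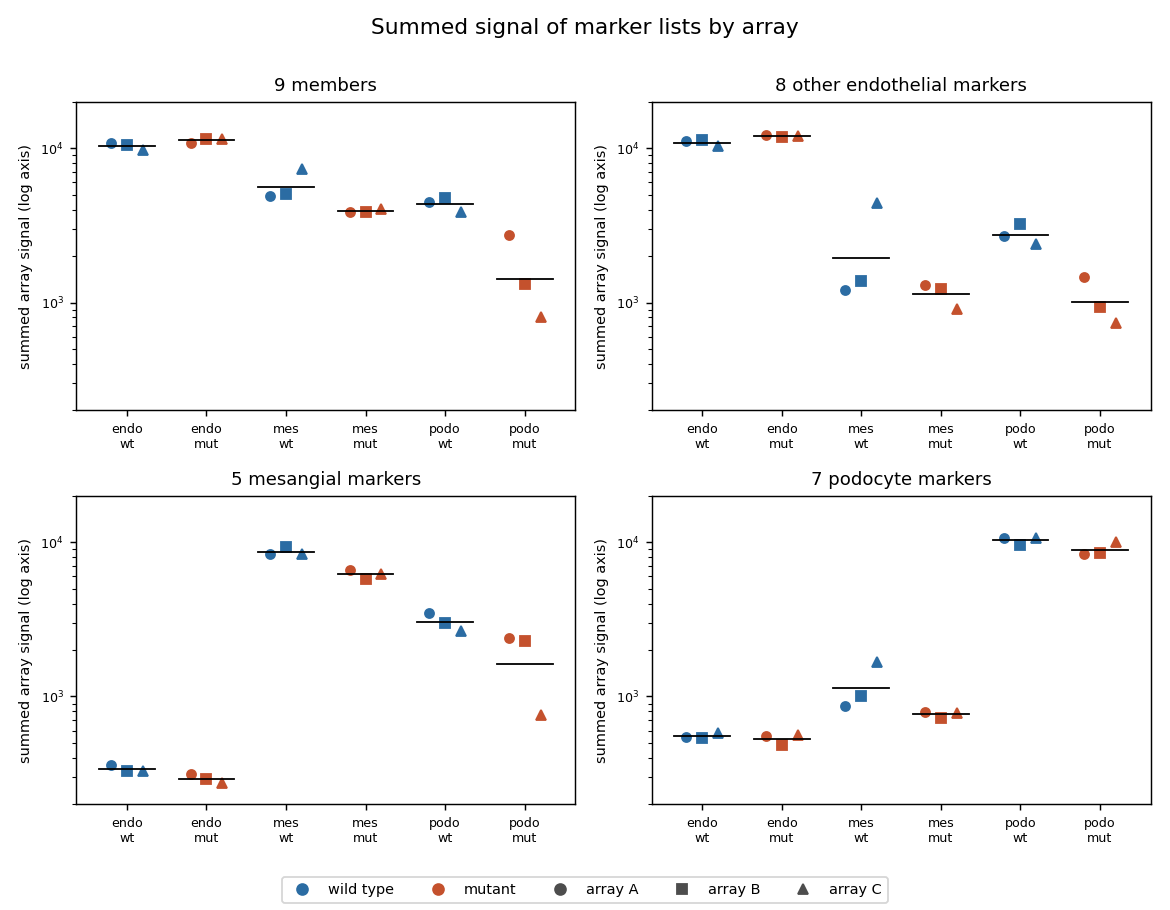
Summed signal of the 9 members, of 8 other endothelial markers, of 5 mesangial markers and of 7 podocyte markers on each array, on a log axis, by cell type (endo, mes, podo) and genotype (wt, mut). Bars are means of the 3 log sums. Wild type mesangial array C is high in members, endothelial and podocyte markers, and mutant podocyte arrays are low in members and endothelial markers.

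Whether the genotype effect differed between cell types was tested as an interaction over all 18 arrays. Endothelial minus mesangial, *Ehd4* alone passed, at 1.74 ± 0.29 (adjusted p = 0.00752), where 1.07% of transcript clusters were called. The gene was higher in mutants by 0.77 in endothelial and lower by a change of -0.97 in mesangial cells. *Plvap* had 1.27 (adjusted p = 0.0536), and passed without endothelial mutant array B, mesangial mutant array C or mesangial wild type array C (adjusted p = 0.00656, 0.0462 and 0.0303). *Cd34* had 1.36 (adjusted p = 0.281). Endothelial minus podocyte, 4 of the 9 passed with a positive difference, beside 1.86% of all transcript clusters: *Clec14a* at 2.41 (adjusted p = 0.0237), *Ehd4* at 1.35 (adjusted p = 0.0309), *Plvap* at 1.23 (adjusted p = 0.0457) and *Esam* at 1.03 (adjusted p = 0.0368). For *Esam* and *Clec14a* the podocyte side lies mostly under a signal of 100 in mutants (0 and 1 of 3 arrays reached it). The count of 4 fell to 0 when endothelial mutant array A or C, endothelial wild type array B or C or podocyte wild type array A was left out, to 2 without podocyte wild type array B, and rose to 8 without podocyte mutant array A. With only the arrays of the groups compared none of the 4 passed (adjusted p = 0.0657 to 0.0797). After a second quantile normalization only *Clec14a* did, and with no signal minimum only *Ehd4* and *Clec14a* did. The shares of all transcript clusters called without an array or in these other fits are not given. The differences of *Emcn* (2.43), *Cd34* (2.09), *Pecam1* (1.87), *Eng* (1.54) and *Ehd3* had adjusted p values from 0.0727 to 0.22. The interactions use the arrays of the comparisons above and are not separate evidence of them.

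Genes that work with the members were read from lists of partners. Among 10 paralogs and recycling partners of the EHD proteins, 0 were called between genotypes in limma in endothelial cells (8 tested), mesangial cells (9) or podocytes (9), with 2, 1 and 3 at an unadjusted p under 0.05, to be read, like the counts of this kind that follow, beside 18.5%, 21.7% and 14.3% of all transcript clusters in these cell types. *Ehd2*, the caveolar paralog, had 0.30 in endothelial cells (adjusted p = 0.352) and -0.16 in mesangial cells (adjusted p = 0.549). *Ehd1* had 0.14 in mesangial cells (adjusted p = 0.523) and 0.03 in podocytes (adjusted p = 0.93), beside -0.98 for *Ehd3* and -0.97 for *Ehd4* in mesangial cells. Of 5 caveolar genes, *Cav2*, which encodes a caveolin, fell in mutant mesangial cells by 0.55 (adjusted p = 0.0289), a call lost without wild type array C (-0.54, adjusted p = 0.0507). No other gene of that list was called in any cell type. At an unadjusted p under 0.05, 1 of the 5 was higher in endothelial cells. In mesangial cells 1 was higher and 2 lower, and in podocytes 2 were higher and 1 lower. *Sdpr* (cavin 2) had -1.87 in podocytes (adjusted p = 0.135) and -0.84 in mesangial cells (adjusted p = 0.14), and *Ptrf* (cavin 1) had 0.82 in podocytes (adjusted p = 0.102). Of 12, 10 and 11 tested genes of the endoglin pathway in endothelial cells, mesangial cells and podocytes 0 were called, with 1, 2 and 2 at an unadjusted p under 0.05. The inhibitory *Smad7* had 0.56 in endothelial cells (adjusted p = 0.141) and the target *Id3* had -0.45 in mesangial cells (adjusted p = 0.0528). Of 4 genes of the CLEC14A family and its ligand 0 were called, with 3, 1 and 1 at an unadjusted p under 0.05. *Cd93*, a C-type lectin of that family, had 1.09 in endothelial cells (adjusted p = 0.0566) against 0.83 for *Clec14a*. The endothelial junction list (8, 7 and 6 tested) and the CD34 relatives *Podxl* and *Cd164* gave 0 calls between genotypes, with 3, 2 and 2 junction genes and 0 of these relatives at an unadjusted p under 0.05.

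Between wild type endothelial and mesangial cells, 27.2% of all transcript clusters were called and 13.3% of all were called higher in endothelial cells, and the counts of partners are given beside these shares. All values of partners here include wild type mesangial array C, and none are given without it. In the mesangial genotype comparison, leaving that array out moved *Cdh5* from -0.45 to 0.67 and *Mmrn2* from -0.39 to 0.36. Of the endoglin pathway, 6 genes were higher in endothelial than in mesangial cells, among them the receptor genes *Acvrl1* (0.71) and *Bmpr2* (0.39) and the targets *Smad6* (1.12) and *Id1* (1.39), while *Eng* itself was not called. In the CLEC14A list the relatives *Cd93* (2.24) and *Thbd* (1.75, thrombomodulin) and the ligand gene *Mmrn2* (3.11) were higher in endothelial cells, whereas *Cd248*, a lectin of pericytes and fibroblasts, was lower (-3.72), as *Clec14a* was (-1.87). In the junction list 6 of 8 were higher, including *Cdh5* (3.40) and *Jam2* (2.58), and 1, the phosphatase gene *Ptpn11*, was lower (-0.50). *Cav1* (1.95), *Sdpr* (1.44) and *Prkcdbp* (0.95) were higher and *Ptrf* lower (-0.54) among caveolar genes, with *Plvap* lower. Of the EHD list *Micall1* (0.94) and *Rab11a* (0.77) were higher and *Ehd2* (-0.55), *Rab8a* (-0.42) and *Zfyve20* (-0.60) lower. The transcript cluster of *Micall1* also carries another symbol, so its signal may not be that of *Micall1* alone.

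The members did not share a single profile. Pearson's r of a member with the mean of the other 8 over the 18 arrays, which fall into 6 groups of 3, was 0.94 for *Cd34*, 0.86 for *Eng*, 0.84 for *Ehd3*, 0.83 for *Emcn* and 0.81 for *Esam*. It was 0.61 for *Ehd4*, 0.56 for *Clec14a*, 0.52 for *Pecam1* and 0.26 for *Plvap*. The genes outside every list whose log2 signal most resembled the mean profile of the members, among the 2601 that reached a signal of 500 on some array, were *Reep3* (r = 0.96), *Gabpa* (0.96), *Calcrl* (0.95), *Trim25* (0.95) and *Rgl1* (0.94). *Calcrl*, the receptor of adrenomedullin and CGRP, ran from 1935 to 2186 on endothelial arrays, from 609 to 1366 on mesangial arrays, from 605 to 932 on wild type podocyte arrays and from 93.8 to 551 on mutant podocyte arrays. These values of r are descriptions of 18 arrays that share the cell types, and carry no test.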

How the data were processed

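The members and the lists were chosen with earlier results of these data known. The authors amplified RNA in a single round by Ribo-SPIA and hybridized it to Affymetrix Mouse Gene ST arrays. Gene ST arrays are named by the methods and the file header, whereas the series text has Exon ST arrays and the program GeneBASE. The authors deposited linear intensity values that the sample records ascribe to RMA in Expression Console, which corrects background, equalizes the distributions of the arrays and summarizes the probes of a transcript cluster. The 18 columns of a second, normalized form were not used. The annotation is mm9 where the file states one, and no coordinates were taken from it. The series text states biological triplicates. Column names gave the group but not the sample record, so replicate numbers were not used.

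Log2 intensities were fitted in R 4.3.3 with limma 3.58.1 (lmFit, then eBayes). All adjusted p values in the text are from limma, two-sided, with Benjamini-Hochberg adjustment over all transcript clusters tested. Genotype comparisons used the 6 arrays of a cell type, and comparisons of cell types and interactions all 18, with no covariates. A transcript cluster entered when its signal was at least 100 on at least 1 array of the fit. On each array between 9697 and 10097 transcript clusters reached that signal. The number of arrays limits the precision, and no depth is defined for arrays. Errors are SD for means and standard errors of the fit for differences. The genes named are the 9 members, *Cd2ap*, genes of the lists of partners and markers where a list is described, and the 5 genes outside the lists with the highest r to the mean of the members' z-scores. The comparison of wild type mesangial cells with podocytes and the core promoter motifs (TATA box, CCAAT box, GC box) were added later. The fits were tested on simulated data. As alternatives, the minimum was required on all 3 arrays of a group or dropped, and the fits were repeated with eBayes with trend and robust estimation, array medians subtracted, a second quantile normalization, the methods' screen, other sets of arrays and each array left out. Protein sequences were not used here. Promoters came from RefSeq. Some genes of the podocyte marker list are not reported here.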

Additional observations from a re-analysis of the deposited data

Results flagged for a closer look

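The genotype effect of *Ehd4* differed between endothelial and mesangial cells by 1.74 on the log2 scale (limma, adjusted p = 0.00752), with every endothelial mutant array above every endothelial wild type array and every mesangial mutant array below every mesangial wild type array. Against podocytes the genotype effect in endothelial cells differed for *Plvap* by 1.23 (adjusted p = 0.0457), *Ehd4* by 1.35 (adjusted p = 0.0309), *Clec14a* by 2.41 (adjusted p = 0.0237) and *Esam* by 1.03 (adjusted p = 0.0368). In these 4 genes every mutant array lay above the wild type arrays in endothelial cells and below them in podocytes. Of all transcript clusters, 17.7% lay higher without overlap in mutant endothelial cells, 16.3% lower in mutant mesangial cells and 14.3% lower in mutant podocytes. The interactions called 1.07% of all transcript clusters against mesangial cells and 1.86% as higher against podocytes. The genes were picked by these interactions on the same arrays, so the separation of their arrays is not separate evidence. In mutant podocytes *Esam* reached a signal of 100 on 0 of 3 arrays and *Clec14a* on 1 of 3, so the sizes of their differences rest on signals under the minimum. The *Ehd4* difference from mesangial cells kept an adjusted p under 0.05 when each of the 12 arrays was left out in turn (0.00323 to 0.0301), while the 4 differences from podocytes did not.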

How the results depend on the processing

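Leaving out arrays and changing the set of arrays in the fit moved the counts of called members more often than the scaling did. Outside leaving out arrays and the methods' screen, 394 of 430 values of single members stayed on their side of the threshold in the same direction, 21 passed it, 14 lost it and 1 reversed, which was the *Eng* difference of genotype effects between endothelial and mesangial cells (0.08, and -0.014 after a second quantile normalization). Of 72 values, the methods' screen, which uses no adjusted p, took 22 that had not been called. With it in place of the adjusted p, the called members rose from 0 to 3 in endothelial cells and from 0 to 7 in podocytes. Beside these, the screen took 2.96% of all transcript clusters as higher in endothelial cells and 4.34% as lower in podocytes. In wild type, the called members rose from 4 to 6 for endothelial cells against podocytes and from 3 to 5 for mesangial cells against podocytes. For the 2 differences of genotype effects they rose from 1 to 5 and 4 to 8. The screen's shares of all transcript clusters in these other comparisons are not given, so their counts have no share beside them. With all 18 arrays in 1 fit the genotype counts became 1 in endothelial cells (*Plvap*), 1 in mesangial cells (*Ehd4*, while *Cd34* and *Ehd3* lost their calls) and 6 in podocytes. The shares of all transcript clusters called in that fit are not given, so these counts have no share beside them. With only the arrays of the groups compared, wild type endothelial cells against podocytes gave 8 in place of 4, with 6 higher and 2 lower. *Cd34* and *Emcn* were gained as higher, and *Plvap* and *Clec14a* as lower. The differences of genotype effects then gave 4 against mesangial cells and 0 against podocytes. Subtracted array medians gave 5 for wild type mesangial cells against podocytes and 2 for endothelial minus mesangial, where the minimum in all 3 arrays of a group also gave 2. For endothelial minus podocyte, no minimum gave 2 and a second quantile normalization 1. Shares of all transcript clusters called in these other fits are not given either, and the causes of these changes were not tested.

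With each array left out in turn, called members ran from 0 to 3 in endothelial cells, 1 to 3 in mesangial cells and 0 to 4 in podocytes. In wild type, they ran from 4 to 7 for endothelial against mesangial cells and 3 to 4 for endothelial cells against podocytes. For wild type mesangial cells against podocytes they ran from 3 to 4. Differences of genotype effects gave 1 to 2 for endothelial minus mesangial and 0 to 8 for endothelial minus podocyte. The shares of all transcript clusters called without each array are not given, so these counts have no share beside them. Directions turned for *Pecam1* and *Emcn* in mesangial cells (-1.03 to 0.62 and -0.51 to 0.43) and, for endothelial minus mesangial, for *Pecam1* (-0.34 to 1.30), *Emcn* (-0.53 to 0.41) and *Eng* (-0.025 to 0.23). Without wild type mesangial array C, chosen after seeing the data for contrasts that do not use it and for the lists of markers and partners, the calls between endothelial cells and podocytes stayed at 4 in wild type and 4 between genotype effects. Averaging over all clusters of a symbol was not run, since each member has 1. No paired analysis was possible because the columns carry no replicate numbers that the groups share.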
